A study of Mus musculus with 21 samples.

Results

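The proteasome genes of mouse CD8 T cell cultures were described in RNA sequencing libraries of acute and chronic T cell receptor (TCR) stimulation. Members were taken by symbol: every gene of the deposited RPKM table (reads corrected for gene length and sequencing depth) that begins with Psma, Psmb, Psmc, Psmd, Psme, Psmf or Psmg followed by a digit. That gave 48 of 13202 genes, and all 48 passed the filter on low values and were tested among 12630 genes. One of them, Psmc3ip, encodes a recombination cofactor and not a proteasome subunit. Psma8 and Psmb11, the testis and thymus subunits, were not analysed here.

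The 21 libraries fell into 7 groups with n = 3 each, from 3 experiments, all of mouse CD8 T cells stimulated for 48 h, kept in interleukin 2 and harvested on day 8. Polyclonal C57BL/6 cells, purified from spleen and inguinal lymph nodes by removing other cells, were first stimulated with plate-bound anti-CD3 and anti-CD28 and then kept without anti-CD3 (polyclonal acute) or re-plated on it every 48 h (polyclonal chronic). OT-I TCR transgenic cells, which recognise a peptide of ovalbumin, were activated with that peptide and then shared their wells with the B16-F10 melanoma line, pretreated with 1 ng/mL interferon-γ, without further peptide (OT-I acute) or with peptide every 48 h (OT-I chronic). C57BL/6 cells with vehicle were kept acute or chronic (vehicle acute, vehicle chronic), and a further chronic group received N-acetylcysteine (NAC, an antioxidant from which cells make cysteine) at 10 mM from 48 h onwards (NAC chronic). Nothing in the labels ties replicates to different animals or cultures, so the p-values reflect the spread among these libraries alone, which may be technical. Melanoma cells were present in the OT-I acute group too, so both OT-I groups hold RNA of interferon-treated tumour cells.

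The proteasome is the barrel-shaped protease that degrades ubiquitin-tagged proteins. Its 20S core has outer rings of alpha subunits and inner rings of beta subunits, of which Psmb5, Psmb6 and Psmb7 carry the proteolytic sites, and the 19S cap with its Psmc ATPases and Psmd subunits recognises and unfolds substrates. In lymphocytes and in cells that sense interferon-γ, Psmb8, Psmb9 and Psmb10 take the places of Psmb5, Psmb6 and Psmb7 in newly built particles, the immunoproteasome, and the PA28 activator of Psme1 and Psme2 docks to it. The peptides it makes are loaded on MHC class I molecules.

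Reads in genes numbered 5347355 to 25218890 per library, and the members had between 51 reads (Psmc3ip) and 16254 reads in a library. Within OT-I acute, replicate 3 lay below both other libraries for 44 of 48 members, and within polyclonal chronic, replicate 2 did so for 41 of 48. These libraries and polyclonal acute replicate 2 had a higher median RPKM over all genes than the others of their group, and results are given without them where that matters. Identity markers did not match the CD8 label equally in all groups: the CD8 chain Cd8a was at 101 RPKM in polyclonal acute and 8.48 RPKM in polyclonal chronic libraries, where Cd4 was at 312 RPKM against 67.5 RPKM in polyclonal acute and the 8 B cell markers summed to 218 to 237 RPKM, against 3.595 to 17.6 RPKM in polyclonal acute. The 11 melanocyte markers summed to 7947 to 8243 RPKM in OT-I acute, 4644 to 4768 RPKM in OT-I chronic and 1.54 to 11.2 RPKM in any library of the vehicle and NAC experiment. In the polyclonal experiment, which held no melanoma cells, they summed to 34.04 to 79.8 RPKM in acute and 50.3 to 71.6 RPKM in chronic libraries. The source of that RNA was not tested. B cells and melanoma cells have proteasomes too, and in bulk RNA fewer cells of a type and less RNA per cell cannot be told apart.

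Psmb8, which encodes the immunoproteasome counterpart of Psmb5, had the highest mean RPKM of all members in every group. Its group means (± SD, n = 3, as for all group means here) ran from 293 ± 3.04 RPKM in vehicle chronic and 311 ± 27.7 RPKM in polyclonal chronic to 517 ± 16.5 RPKM in vehicle acute and 526 ± 92.8 RPKM in OT-I acute, and the last 2 groups overlapped. Psmb9, the counterpart of Psmb6, spanned more, from 105 ± 4.36 RPKM in vehicle chronic to 474 ± 87.5 RPKM in OT-I acute. Psmb10, the counterpart of Psmb7, was at 67.6 ± 3.76 RPKM in vehicle chronic and 69.9 ± 5.66 RPKM in polyclonal chronic, whose libraries overlapped, and highest at 247 ± 7.73 RPKM in OT-I chronic. The constitutive Psmb5 stayed between 24.6 ± 5.52 and 47.3 ± 1.88 RPKM in group means, far below Psmb8 on the same per-length scale. The RPKM of Psmb8, Psmb9 and Psmb10 together made up 77.95 ± 0.4800% of that of all 6 catalytic genes in polyclonal acute, 78.3 ± 0.715% in OT-I acute and 72.4 ± 0.589% in vehicle acute libraries (mean ± SD, n = 3). In the chronic groups this share was 68.1 ± 0.509% in polyclonal, 74.4 ± 0.266% in OT-I, 61.2 ± 0.637% in vehicle and 76.2 ± 0.545% in NAC libraries.

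**Figure D1:**
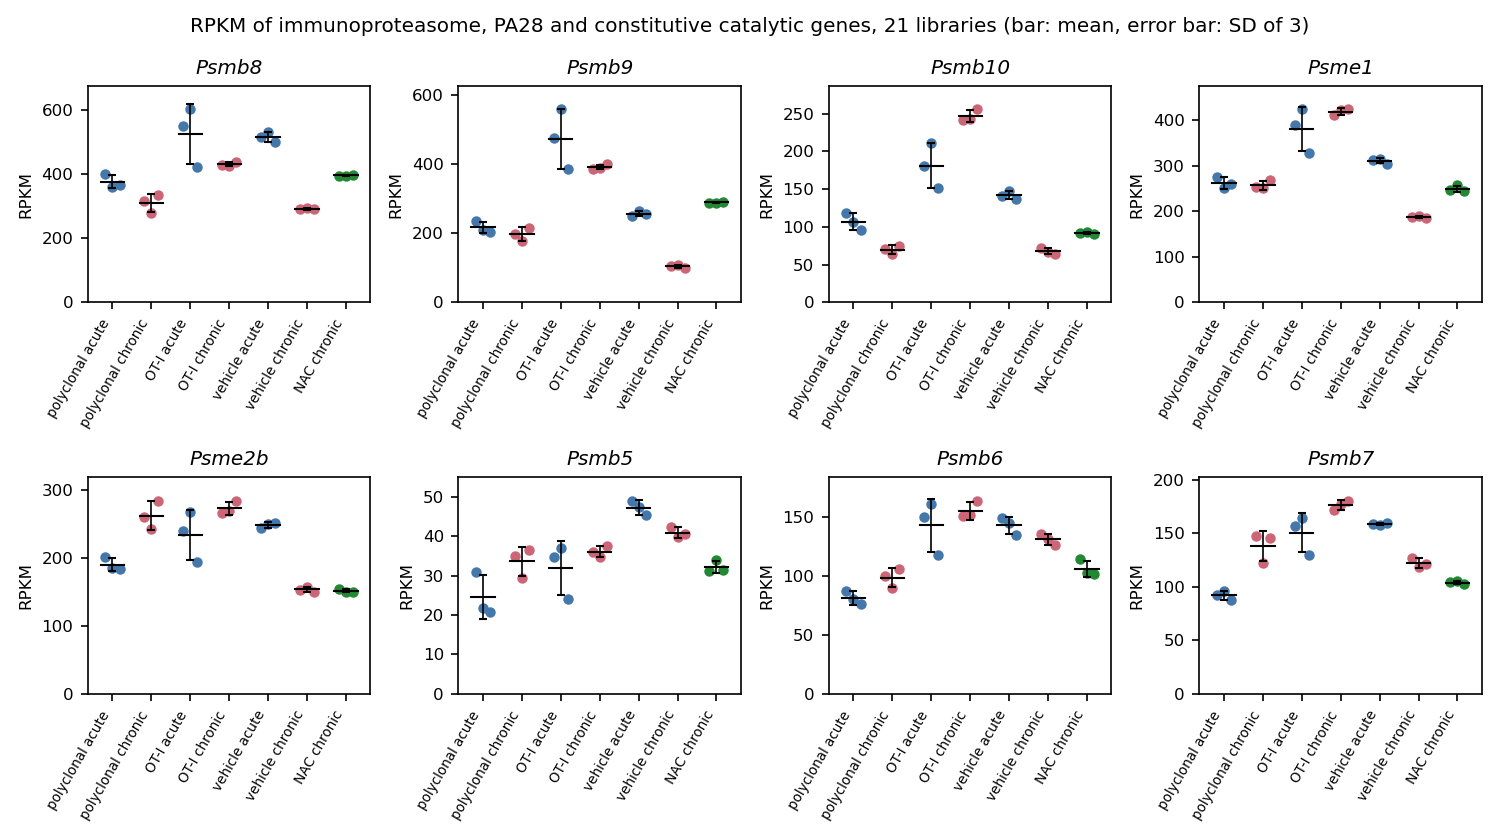
RPKM (linear axis from 0) of 8 proteasome genes in each of the 21 libraries by group. Points are libraries, coloured blue for acute, red for chronic and green for NAC chronic, horizontal bars are means and error bars SD of 3. Psmb9 lies near 105 RPKM in vehicle chronic and near 290.1 RPKM in NAC chronic, with no overlap, while Psmb5, Psmb6 and Psmb7 are lower in NAC than in vehicle chronic libraries.

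Promoter sequences of RefSeq (build GRCm38.p6, a later build than the mm9 the submitters' notes name) were matched by symbol for 41 of the 48 members, in 44 windows of 300 bases from 250 before to 50 after a gene start. They were searched on both strands for the cores of 3 elements: the interferon-stimulated response element (GAAA, any 2 bases, GAAA), the gamma-activated site (TTCNNNGAA, the same on both strands) and the antioxidant response element bound by NRF1 and NRF2 (TGACNNNGC). The windows of Psmb8, Psmb9, Psme1 and Psmb5 are shown because the first 3 moved together in the vehicle and NAC experiment. Psmb5 went the other way with NAC, while in vehicle chronic libraries it was lower too and did not pass. Psmb10 moved with the first 3 too, and so did Psme2 as listed. With NAC, Psme2 did not pass once the reads of its near-identical copy Psme2b were added. The 1 window of Psmb10 and the 2 of Psme2 held none of the 3 cores. Capitals mark matches.
Psmb8 (chr17:34197945-34198244, plus strand): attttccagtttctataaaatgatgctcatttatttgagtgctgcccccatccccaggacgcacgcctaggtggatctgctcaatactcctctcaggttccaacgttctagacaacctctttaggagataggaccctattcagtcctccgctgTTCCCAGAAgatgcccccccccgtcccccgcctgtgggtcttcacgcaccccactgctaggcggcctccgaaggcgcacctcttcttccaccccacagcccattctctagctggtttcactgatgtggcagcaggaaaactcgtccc
Psmb9 (chr17:34187281-34187580, minus strand): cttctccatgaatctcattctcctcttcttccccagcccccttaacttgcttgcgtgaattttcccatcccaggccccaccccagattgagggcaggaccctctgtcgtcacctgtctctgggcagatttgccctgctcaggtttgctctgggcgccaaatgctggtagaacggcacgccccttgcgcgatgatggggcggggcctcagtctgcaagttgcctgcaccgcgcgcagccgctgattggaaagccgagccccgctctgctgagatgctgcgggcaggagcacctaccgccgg
Psme1 (chr14:55578244-55578543, plus strand): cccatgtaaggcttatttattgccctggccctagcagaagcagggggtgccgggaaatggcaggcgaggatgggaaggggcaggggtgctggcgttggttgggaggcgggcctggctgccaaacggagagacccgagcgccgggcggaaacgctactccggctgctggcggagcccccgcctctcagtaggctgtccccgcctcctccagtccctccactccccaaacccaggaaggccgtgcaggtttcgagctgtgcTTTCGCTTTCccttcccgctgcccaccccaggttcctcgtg
Psmb5 (chr14:54617946-54618245, minus strand): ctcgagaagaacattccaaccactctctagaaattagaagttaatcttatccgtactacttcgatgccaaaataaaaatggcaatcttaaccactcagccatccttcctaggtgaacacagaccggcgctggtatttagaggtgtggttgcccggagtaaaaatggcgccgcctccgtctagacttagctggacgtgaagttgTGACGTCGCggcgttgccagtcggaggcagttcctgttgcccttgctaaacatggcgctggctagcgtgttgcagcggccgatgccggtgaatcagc
Psmb8 held a gamma-activated core, Psme1 an interferon-stimulated core on the minus strand and Psmb5 an antioxidant core, and the Psmb9 window held none of the 3. Over the member windows, 5 of 44 (11.4%) held the interferon-stimulated core against 3.44% of all 32851 promoter windows, in Psmb3, Psmd4, Psmd9, Psme1 and Psmg4. The gamma-activated core was in 3 of 44 (6.82%) against 8.30%, in Psmb8, Psmd2 and Psmg1, and the antioxidant core in 6 of 44 (13.6%) against 12.4%, Psmb6 among them. A match of letters is not a bound site, and a window without one says nothing of the factor.

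The vehicle experiment asked what repeated stimulation changed when cells carried the vehicle of the NAC arm. Proteasome genes fell almost throughout, led by the immunoproteasome genes Psmb9 and Psmb10. Of 48 members 41 were lower and none higher in vehicle chronic than in vehicle acute libraries (limma, adjusted p under 0.05), where 34.4% of all tested genes were called lower and 24.5% higher (58.9% in all). The libraries of the groups did not overlap for 44 members, all lower in chronic, where 41.2% of all genes were lower and 31.9% higher without overlap. No member was higher at an unadjusted p under 0.05 either, and with voom on recovered reads 0 were higher and 42 lower; in the comparisons that follow, each count of no member or no constitutive gene was also 0 at an unadjusted p under 0.05. The median log2 change was -0.41 over the members and -0.032 over all genes tested.

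Psmb9 was at 251, 266 and 255 RPKM in the 3 vehicle acute libraries and at 107, 108 and 100.1 RPKM in the 3 vehicle chronic libraries (-1.28 ± 0.094 on the log2 scale, adjusted p = 2.47e-10; changes are given as the log2 change ± its SE from the fit). Psmb10 was at 141, 147 and 137 RPKM in acute and 71.8, 66.7 and 64.4 RPKM in chronic libraries (-1.06 ± 0.089 on the log2 scale, adjusted p = 2.36e-09). Psmb8 was at 517, 533 and 499.7 RPKM in acute and 292, 296 and 290.3 RPKM in chronic libraries (-0.82 ± 0.090 on the log2 scale, adjusted p = 1.26e-07). Every chronic library lay below every acute one for these 3 catalytic genes, and Psmb9 lost the most of all members on the log2 scale. The PA28 alpha gene Psme1 fell with them, from 313, 315 and 304 RPKM to 188, 189.7 and 186 RPKM (-0.72 ± 0.066 on the log2 scale, adjusted p = 8.3e-09). Psme2, listed at 22.1, 22.2 and 21.6 RPKM in acute and 15.1, 15.1 and 15.7 RPKM in chronic libraries, fell as well (-0.50 ± 0.070 on the log2 scale, adjusted p = 4.08e-06). Psme2 cannot be read alone, because the table also lists a near-identical copy, Psme2b, between which reads can be split, and Psme2 held only 3.55% to 11.8% of their joint reads. Psme2b fell from 248 ± 4.04 to 154 ± 3.76 RPKM, and with the reads of both added the change was -0.67 ± 0.078 on the log2 scale, adjusted p = 2.37e-07.

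The constitutive catalytic genes moved less. Psmb7, which carries the trypsin-like site, was at 158, 158 and 159 RPKM in acute and 127, 118 and 122 RPKM in chronic libraries (-0.37 ± 0.072 on the log2 scale, adjusted p = 0.000162). Psmb5, the chymotrypsin-like subunit, was at 49.1, 47.4 and 45.4 RPKM and 42.5, 39.8 and 40.6 RPKM and did not pass (-0.20 ± 0.13 on the log2 scale, adjusted p = 0.195). Psmb6, the caspase-like subunit, was at 149, 145 and 135 RPKM and 136, 132 and 127 RPKM and did not pass either (-0.12 ± 0.089 on the log2 scale, adjusted p = 0.252). The libraries of Psmb5 did not overlap and those of Psmb6 did. Over the 31 constitutive 20S and 19S genes 27 fell and none rose, with a median log2 change of -0.39, against a median of -0.82 over Psmb8, Psmb9, Psmb10, Psme1 and Psme2. All 7 measured alpha ring genes and all 6 ATPase genes fell. Among the other 19S genes 10 of 11 fell, led on the log2 scale by the scaffold gene Psmd1 (from 69.9 ± 1.65 to 42.9 ± 0.631 RPKM), and Psmd8 was at 145 ± 2.696 and 144 ± 1.89 RPKM. Of the chaperones that assemble the core, Psmg4 fell from 47.2 ± 1.24 to 23.7 ± 0.385 RPKM (-0.96 ± 0.079 on the log2 scale, adjusted p = 1.42e-09), Psmg1 from 29.6 ± 4.22 to 16.7 ± 1.23 RPKM, Psmg2 fell and Psmg3 did not pass. Leaving out any 1 of the 6 libraries gave 40 or 41 members lower, and 13 of the 41 fell at least 1.5-fold on the log2(RPKM + 1) scale. In this experiment Psmb5 became a call with only the 2 groups in the fit (adjusted p = 0.00352) and Psmb6 did too (adjusted p = 0.0454).

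NAC was added to chronic cells to ask what it changed there, and the immunoproteasome and the constitutive genes moved in opposite directions. Of 48 members 7 were higher in NAC than in vehicle chronic libraries, where 38.5% of all tested genes were called higher, and 25 were lower, where 22.6% were (61.1% in all). Without overlap, 9 members were higher and 29 lower, against 47.1% and 28.7% of all genes. The 7 that rose were Psmb8, Psmb9, Psmb10, Psme1, Psme2, Psmg1 and Psmg4, and each of these had fallen in vehicle chronic against vehicle acute libraries. Those comparisons share the vehicle chronic libraries, so their values are only set side by side. Of the 31 constitutive 20S and 19S genes none rose and 21 fell.

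Psmb9 rose the most of the members, to 289, 289 and 292 RPKM in the 3 NAC libraries from the 107, 108 and 100.1 RPKM of vehicle chronic (1.46 ± 0.094 on the log2 scale, adjusted p = 4.59e-11). All 3 NAC libraries also lay above the highest vehicle acute library, though the difference from vehicle acute did not pass (0.17 ± 0.094 on the log2 scale, adjusted p = 0.113; adjusted p = 0.00117 with only those groups in the fit). Psmb8 rose to 396, 396 and 398 RPKM (0.44 ± 0.090 on the log2 scale, adjusted p = 0.000296) and stayed below vehicle acute (-0.38 ± 0.090 on the log2 scale, adjusted p = 0.000927). Psmb10 rose to 91.4, 92.9 and 90.1 RPKM (0.43 ± 0.089 on the log2 scale, adjusted p = 0.000304) and was also lower than in vehicle acute (-0.63 ± 0.089 on the log2 scale, adjusted p = 3.36e-06). The groups did not overlap for any of these genes, and Psmb9 moved further than its fellow catalytic subunits. Psme1 rose to 246, 257 and 245 RPKM (0.41 ± 0.066 on the log2 scale, adjusted p = 2.24e-05). Psme2 was listed at 20.05, 21.8 and 21.6 RPKM (0.44 ± 0.070 on the log2 scale, adjusted p = 1.74e-05), but Psme2b, which held most of the joint reads, was at 151 ± 2.36 RPKM against 154 ± 3.76 RPKM in vehicle chronic (-0.022 ± 0.081 on the log2 scale, adjusted p = 0.863). With the reads of both added, PA28 beta did not pass (0.026 ± 0.078 on the log2 scale, adjusted p = 0.823).

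The constitutive catalytic genes fell under NAC. Psmb5 was at 31.3, 34.1 and 31.5 RPKM in NAC libraries (-0.33 ± 0.13 on the log2 scale, adjusted p = 0.0323). Psmb6 was at 114, 103 and 102 RPKM (-0.30 ± 0.089 on the log2 scale, adjusted p = 0.00581). Psmb7 was at 104, 105 and 103 RPKM (-0.23 ± 0.072 on the log2 scale, adjusted p = 0.00901). Every NAC library was below every vehicle chronic library for these 3 genes. The ATPase gene Psmc5 fell the most, from 91.3 ± 0.793 to 64.4 ± 3.05 RPKM (-0.50 ± 0.074 on the log2 scale, adjusted p = 7.77e-06), followed by Psmd13 (from 101 ± 3.299 to 76.3 ± 3.34 RPKM) and Psmd1 (from 42.9 ± 0.631 to 32.5 ± 0.997 RPKM). The nuclear activator gene Psme3 (PA28 gamma) fell from 72.2 ± 0.995 to 57.1 ± 1.37 RPKM, whereas Psmb1, a non-catalytic core gene, was at 243 ± 9.91 and 258 ± 7.81 RPKM. Against vehicle acute, 43 members were lower in NAC chronic libraries and none higher, where 29.9% and 36.3% of all genes were called (66.3% in all). Without overlap 44 were lower and 1 higher, against 34.6% and 43.3% of all genes. The median log2 change from vehicle acute over the 31 constitutive genes was -0.67 with NAC and -0.39 in vehicle chronic libraries. Rescaling every library to a common median shifted the median of the NAC changes over all genes down by 0.16 (log2): the split of all genes went from 4862 higher and 2854 lower to 3380 and 4114, and that of members to 5 higher and 33 lower, with Psmb9 at 1.28, Psmb8 at 0.26, Psmb10 at 0.26 and Psme1 at 0.23 still called higher. Psme2 as listed completed these 5, and Psmg1 and Psmg4 were no longer called higher. The fall of Psmb5 did not pass without vehicle chronic replicate 1, 2 or 3 or NAC replicate 1 or 3 (adjusted p of 0.0878, 0.0513, 0.0611, 0.0832 and 0.0794).

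**Figure D2:**
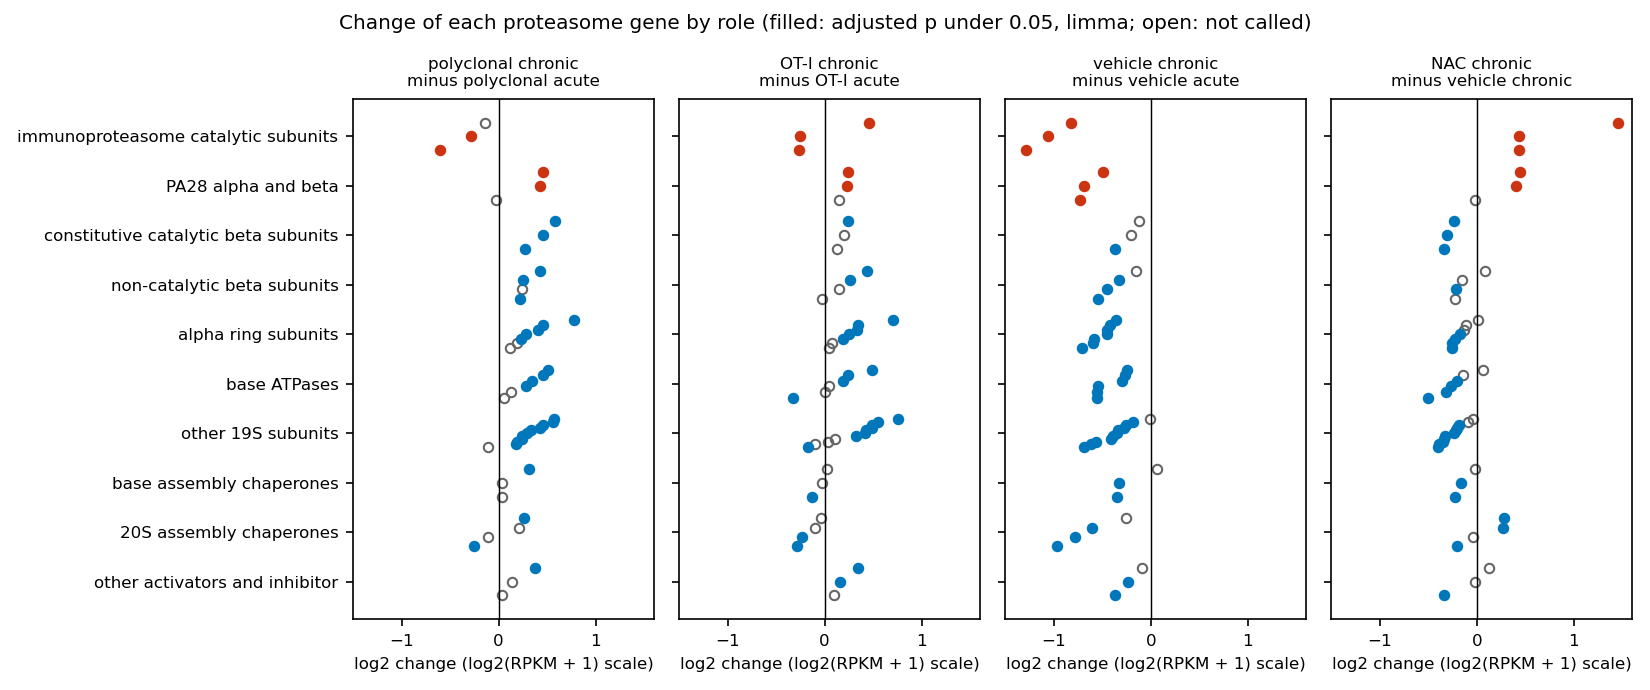
Log2 change (log2(RPKM + 1) scale, horizontal axis) of 47 proteasome genes in rows by role, in 4 comparisons. Each point is a gene, filled where limma's adjusted p was under 0.05, red for the immunoproteasome and PA28 genes and blue for the others; in the right panel 5 red points lie to the right of 0 while the constitutive rows lie mostly to the left.

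Markers of other cells moved within the vehicle and NAC experiment. Cd4 was at 13.9 RPKM in vehicle acute, 2.39 RPKM in vehicle chronic and 47.9 RPKM in NAC chronic libraries, the same order as Psmb9, and the 3 CD4 T cell markers summed to 33.7 to 34.5 RPKM, 18.7 to 21.8 RPKM and 71.9 to 73.6 RPKM. The 5 CD8 T cell markers summed to 1136 to 1188 RPKM, 1556 to 1579 RPKM and 1832 to 1888 RPKM, a sum made up mostly of CD3 genes. Cd8b1 was at 178.5, 88.8 and 184.4 RPKM in that order, as Psmb9 went, and Cd8a at 87.1, 145.1 and 138.4 RPKM. The 6 myeloid and dendritic markers summed to 10.9 to 14.9 RPKM, 24.7 to 27.9 RPKM and 52.3 to 55.8 RPKM, largely Cd68 and Itgax, with Adgre1 at or near 0. The 3 NK cell markers summed to 98.8 to 103 RPKM, 95.4 to 96.4 RPKM and 213 to 218 RPKM, most of it Eomes, which CD8 T cells express too. The 8 B cell markers summed to 4.89 to 6.38 RPKM, 3.204 to 4.498 RPKM and 10.1 to 11.5 RPKM, with Cd79b at 2.73 RPKM in vehicle chronic and 8.57 RPKM in NAC chronic libraries and Ms4a1 at or near 0. The part of these cells in the proteasome values was not tested. Tyrp1, Tyr and Slc45a2 were listed at 0 in all libraries of this experiment.

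Repeated anti-CD3 in polyclonal cells gave another picture, with constitutive genes up and Psmb8 and Psmb10 down. Of 48 members 30 were higher in polyclonal chronic than in polyclonal acute libraries, where 28.6% of all tested genes were called higher, and 3 were lower, where 35.5% were (64.1% in all). Without overlap, 29 members were higher and 3 lower, against 26.8% and 32.8% of all genes. The 3 that fell were Psmb10, Psmb8 and Psmg4. Among the 31 constitutive genes 25 rose and none fell, with a median log2 change of 0.29 against -0.083 over all genes tested.

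Psmb10 was at 118, 107 and 96.3 RPKM in the acute and 70.5, 64.00 and 75.3 RPKM in the chronic libraries (-0.61 ± 0.089 on the log2 scale, adjusted p = 5.44e-06). Psmb8 was at 401, 362 and 368 RPKM and 317, 280.1 and 334 RPKM (-0.28 ± 0.090 on the log2 scale, adjusted p = 0.0102). Psmb9 was at 236, 211 and 205 RPKM and 199, 177 and 216 RPKM, overlapped and did not pass (-0.14 ± 0.094 on the log2 scale, adjusted p = 0.212). The chronic libraries lay below all acute ones for Psmb10 and Psmb8. Psme1 was at 276, 251 and 260.2 RPKM in acute and 252, 249.9 and 268 RPKM in chronic libraries (-0.030 ± 0.066 on the log2 scale, adjusted p = 0.712). Psme2, at 21.7, 23.2 and 22.8 RPKM and 28.97, 30.7 and 32.5 RPKM, rose (0.43 ± 0.070 on the log2 scale, adjusted p = 2.07e-05), and so did its reads together with those of Psme2b (0.46 ± 0.078 on the log2 scale, adjusted p = 2.97e-05). PA28 beta thus rose where PA28 alpha did not pass.

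Psmb7 was at 92.1, 95.7 and 87.98 RPKM in acute and 147, 122 and 145 RPKM in chronic libraries, without overlap (0.58 ± 0.072 on the log2 scale, adjusted p = 5.84e-07). Psmb5 was at 30.9, 21.9 and 20.9 RPKM and 35.2, 29.5 and 36.5 RPKM, and acute library 1 lay among the chronic ones (0.46 ± 0.13 on the log2 scale, adjusted p = 0.00439). Psmb6 was at 87.8, 80.7 and 76.4 RPKM and 99.9, 90.2 and 106 RPKM (0.27 ± 0.089 on the log2 scale, adjusted p = 0.0116). All 3 constitutive catalytic genes thus rose while their counterparts fell or did not pass. The largest rise was in the alpha ring gene Psma3 (from 12.7 ± 0.6998 to 22.5 ± 2.19 RPKM, 0.78 ± 0.095 on the log2 scale, adjusted p = 4.21e-07), followed by Psmb7 and the lid gene Psmd7 (from 52.2 ± 1.51 to 78.5 ± 8.14 RPKM). The third gene that fell, the assembly chaperone Psmg4, went from 27.4 ± 2.04 to 22.8 ± 1.37 RPKM. The fall of Psmb8 did not pass with libraries rescaled to a common median (adjusted p = 0.0618) or without polyclonal chronic replicate 2 (adjusted p = 0.0599), and the rise of Psmb6 not without polyclonal acute replicate 3 (adjusted p = 0.0583) or polyclonal chronic replicate 3 (adjusted p = 0.0635). The B cell markers and Cd4 rose with this comparison, as given above. The 3 NK cell markers summed to 141 to 145 RPKM in acute and 8.39 to 9.85 RPKM in chronic libraries, where Eomes went from 120.2 to 7.76 RPKM, and the 6 myeloid and dendritic markers to 40.4 to 50.3 RPKM and 23.1 to 26.5 RPKM. The part of these cells in the proteasome values was not tested.

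In the OT-I co-culture the immunoproteasome genes did not share a direction, and the falls among them depended on the setting. Of 48 members 24 were higher in OT-I chronic than in OT-I acute libraries, where 22.4% of all tested genes were called higher, and 7 were lower, where 36.2% were (58.6% in all). Without overlap, 22 members were higher and 3 lower, against 23.8% and 41.3% of all genes. Psmb10 rose, Psmb8 and Psmb9 were called lower with overlapping libraries, and constitutive genes were mostly up, with 18 of 31 higher and 2 lower and a median log2 change of 0.24 against -0.12 over all genes tested. With every library rescaled to a common median the split of all genes went from 2827 higher and 4568 lower to 3460 and 3518, and that of members to 28 higher and 1 lower.

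Psmb10 was at 180.1, 212 and 152 RPKM in OT-I acute and 242, 243 and 256 RPKM in OT-I chronic libraries, without overlap (0.46 ± 0.089 on the log2 scale, adjusted p = 0.000199). Psmb8 was at 550.5, 603 and 423 RPKM and 428, 427 and 439 RPKM (-0.27 ± 0.090 on the log2 scale, adjusted p = 0.015). Psmb9 was at 476, 560.2 and 385 RPKM and 388, 390.03 and 400.4 RPKM (-0.25 ± 0.094 on the log2 scale, adjusted p = 0.0264). For Psmb8 and Psmb9 acute replicates 1 and 2 lay above the chronic libraries and replicate 3 below them. The 2 calls did not pass without OT-I acute replicate 2 (adjusted p of 0.113 for Psmb8 and 0.211 for Psmb9) or replicate 1 (0.0645 and 0.0652), and that of Psmb9 not without OT-I chronic replicate 1 (0.0658) or 2 (0.0613). They did not pass with rescaled libraries either (0.175 and 0.228), nor with only the compared groups in the fit (0.106 and 0.126). Without OT-I acute replicate 3, the library that stood apart, their log2 changes were -0.42 and -0.39. Psme1 was at 388, 423 and 328 RPKM and 410.3, 422 and 424 RPKM and did not pass (0.15 ± 0.066 on the log2 scale, adjusted p = 0.0611). It passed when OT-I acute replicate 2 was left out (adjusted p = 0.00322) or libraries were rescaled (0.24, adjusted p = 0.0202), but without replicate 3 its log2 change was 0.046 (adjusted p = 0.439). Psme2 was listed at 11.1, 11.6 and 9.83 RPKM and 14.5, 13.5 and 11.3 RPKM (0.25 ± 0.070 on the log2 scale, adjusted p = 0.00548), a call lost with only the compared groups in the fit (adjusted p = 0.0556), and its reads with those of Psme2b gave 0.24 ± 0.078 on the log2 scale, adjusted p = 0.014.

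Psmb7 was at 157, 164 and 129.9 RPKM in acute and 172, 177 and 181 RPKM in chronic libraries (0.24 ± 0.072 on the log2 scale, adjusted p = 0.00849), a call lost when OT-I acute replicate 3 was left out (adjusted p = 0.0658) or only the compared groups were in the fit (adjusted p = 0.0533). Psmb5, at 34.9, 37.00 and 24.1 RPKM and 36.2, 34.9 and 37.5 RPKM, did not pass (0.20 ± 0.13 on the log2 scale, adjusted p = 0.207). Psmb6, at 151, 161 and 118 RPKM and 151, 152 and 164 RPKM, did not pass (0.13 ± 0.089 on the log2 scale, adjusted p = 0.216). Psmb6 passed when OT-I acute replicate 2 was left out (adjusted p = 0.0407), but its log2 change was -0.0032 without replicate 3 (adjusted p = 0.975). That of Psmb5 was 0.0086 without replicate 3 (adjusted p = 0.957). The low values of acute replicate 3 reached into all 3 constitutive catalytic genes. The rises without overlap were led by the lid gene Psmd12 (from 48.9 ± 4.22 to 83.3 ± 1.11 RPKM, 0.76 ± 0.052 on the log2 scale, adjusted p = 1.84e-10), the alpha gene Psma5 (from 11.7 ± 1.204 to 19.6 ± 0.453 RPKM) and the lid gene Psmd13 (from 67.4 ± 8.66 to 98.8 ± 1.04 RPKM). The falls without overlap were the ATPase gene Psmc6 (from 133 ± 17.8 to 105 ± 2.36 RPKM, -0.33 ± 0.068 on the log2 scale, adjusted p = 0.000334), the assembly chaperone gene Psmg2 (from 43.6 ± 3.97 to 36.97 ± 3.36 RPKM) and the lid gene Psmd8 (from 306 ± 29.5 to 272 ± 4.91 RPKM). Leaving out any 1 of the 6 libraries gave 19 to 25 members higher and 2 to 9 lower. The count called lower was 2 without OT-I acute replicate 2 and 3 without OT-I chronic replicate 1. Melanocyte marker RNA fell between these groups, as given above, while the 8 B cell markers summed to 5.27 to 12.96 RPKM in acute and 45.7 to 49.7 RPKM in chronic libraries. The 3 NK cell markers summed to 12.03 to 13.2 RPKM and 43.6 to 47.1 RPKM, and the 6 myeloid and dendritic markers to 7.47 to 12.7 RPKM and 24.4 to 26.7 RPKM, with Mpeg1 at 1.96 and 15.6 RPKM. The part of any of these in the proteasome values was not tested.

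**Figure D3:**
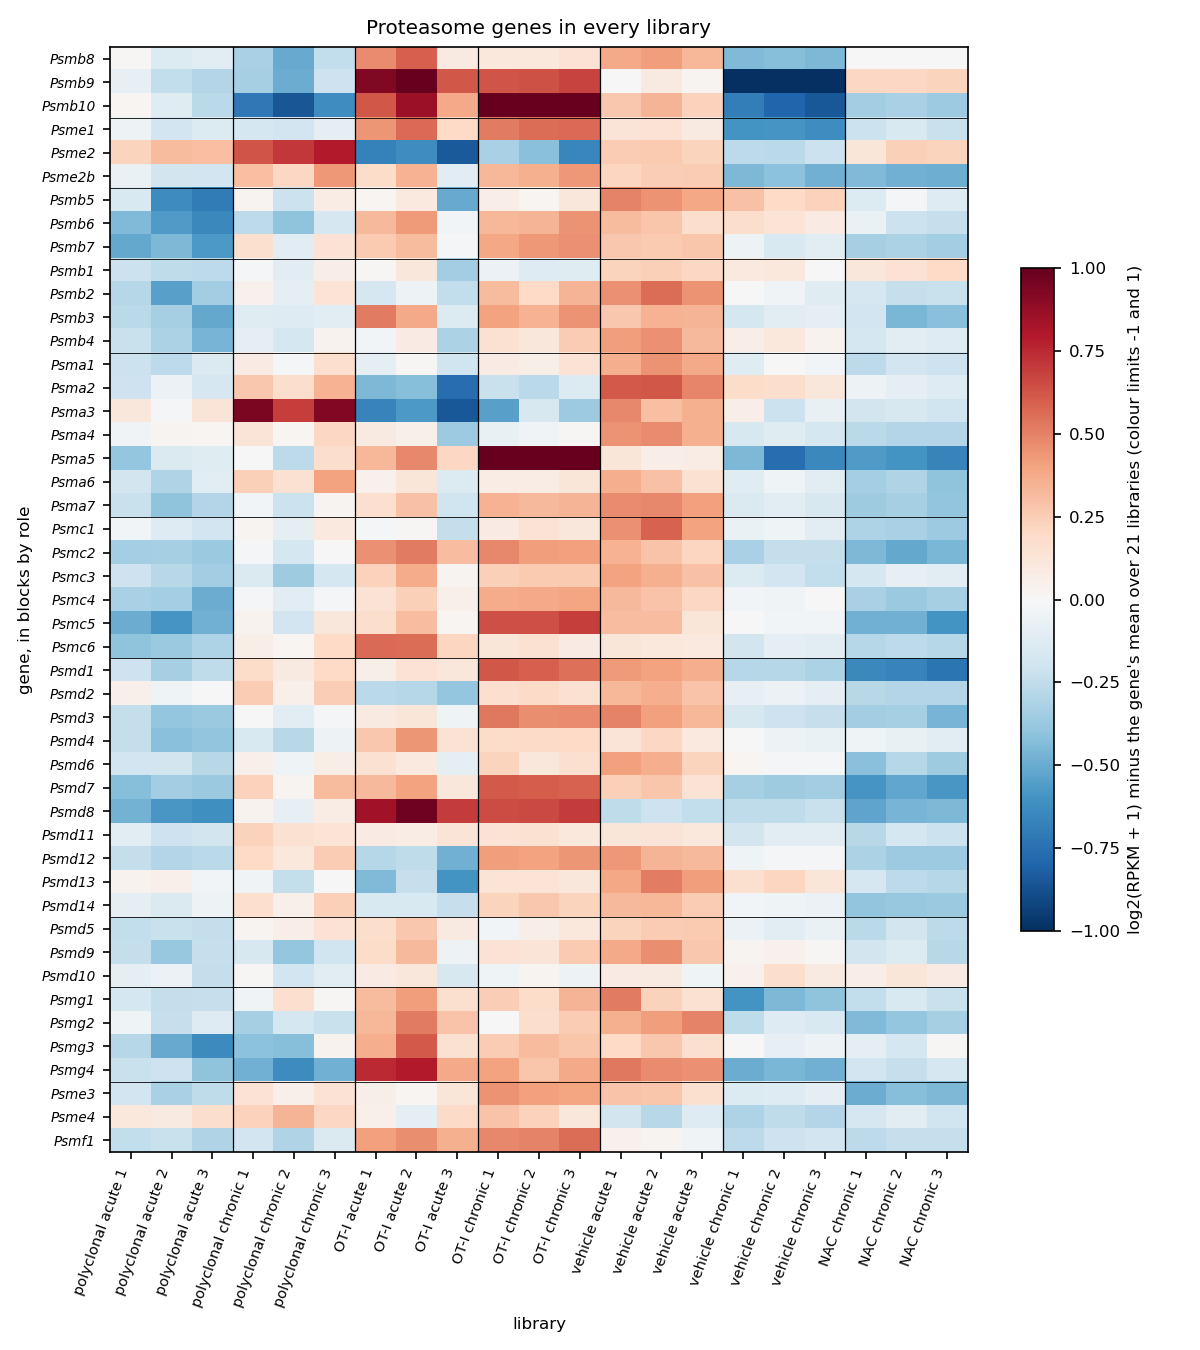
Level of 47 proteasome genes (rows, in blocks by role) in each of the 21 libraries (columns), as log2(RPKM + 1) minus the gene's mean over all libraries, with colours from blue (lower) to red (higher) cut at -1 and 1. Most constitutive rows are red in vehicle acute and blue in NAC chronic libraries, while Psmb9 is deep blue in the 3 vehicle chronic libraries and pale red in the 3 NAC libraries.

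Because library scaling cancels within a library, the immunoproteasome genes were also set against their constitutive counterparts as RPKM ratios per library. The 12 tests (3 pairs in 4 comparisons) were exact permutation tests, two-sided, in which 3 against 3 cannot go below p = 0.1, and each gave p = 0.1 (Benjamini-Hochberg adjusted p = 0.1), because no pair of groups overlapped. The ratio of Psmb9 to Psmb6 was 1.800 ± 0.106 in vehicle acute, 0.799 ± 0.0194 in vehicle chronic and 2.74 ± 0.182 in NAC chronic libraries (mean ± SD, n = 3). Vehicle chronic was the only group in which Psmb9 lay below Psmb6 in each library. That of Psmb8 to Psmb5 was 10.9 ± 0.362, 7.15 ± 0.284 and 12.3 ± 0.579 in the same order. That of Psmb10 to Psmb7 was 0.894 ± 0.0371, 0.553 ± 0.0198 and 0.879 ± 0.00363. All 3 ratios were thus lower in chronic than in acute cells with vehicle, and higher with NAC than in vehicle chronic.

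In polyclonal libraries all 3 ratios were lower with chronic stimulation: Psmb8 to Psmb5 was 15.7 ± 2.43 in acute and 9.23 ± 0.238 in chronic. Psmb9 to Psmb6 was 2.66 ± 0.0411 and 1.998 ± 0.0357. Psmb10 to Psmb7 was 1.16 ± 0.102 and 0.507 ± 0.0244, the lowest of the 7 groups in the mean. In OT-I libraries Psmb8 to Psmb5 was lower, at 16.6 ± 0.926 in acute and 11.9 ± 0.2700 in chronic. Psmb9 to Psmb6 was lower too, at 3.303 ± 0.161 and 2.53 ± 0.0766. Psmb10 to Psmb7 was higher, at 1.201 ± 0.0771 and 1.399 ± 0.0237, and this was the only one of the 9 chronic against acute ratios that was higher. The Psmb8 to Psmb5 ratio of the 3 OT-I acute libraries was 15.8, 16.3 and 17.6, with replicate 3 the highest.

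**Figure D4:**
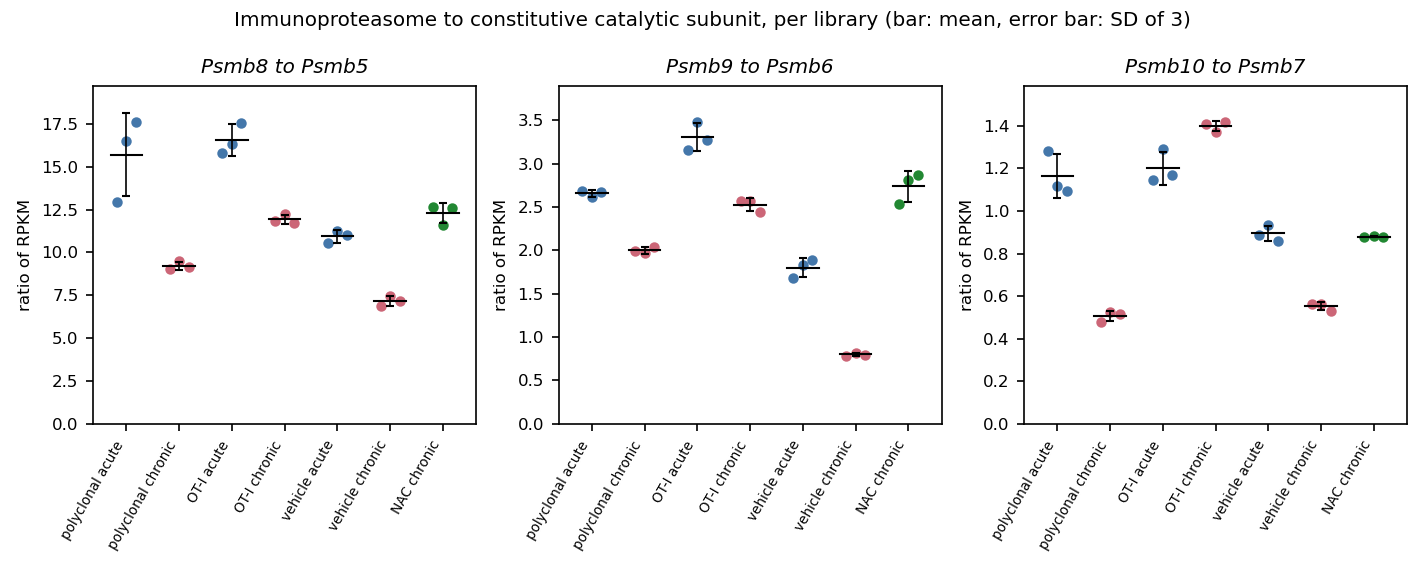
Ratio of the RPKM of each immunoproteasome catalytic gene to that of its constitutive counterpart (vertical axes from 0) in each of the 21 libraries by group, blue for acute, red for chronic and green for NAC chronic, with means and SD of 3. Chronic points lie below acute ones in every experiment except for Psmb10 to Psmb7 in OT-I libraries.

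The chronic effect on the proteasome was tested for a difference between experiments. The vehicle effect lay below the polyclonal effect for 46 of 48 members and above it for none (limma, adjusted p under 0.05), where 27.3% and 25.1% of all genes tested were called (52.4% in all). The OT-I effect lay above the vehicle effect for 40 members and below it for none (2 without OT-I acute replicate 3), where 27.4% and 31.1% were (58.5% in all). Between OT-I and polyclonal effects 7 members were higher and 11 lower, where 26.6% and 29.2% were (55.8% in all), but 21 were lower without OT-I acute replicate 3. Psmb10 differed most between OT-I and the other cells, where the OT-I effect minus the vehicle effect was 1.51 ± 0.13 on the log2 scale, adjusted p = 2.8e-09, and the OT-I effect minus the polyclonal effect 1.06 ± 0.13 on the log2 scale, adjusted p = 4.98e-07. For Psmb9 the vehicle effect minus the polyclonal effect was -1.15 ± 0.13 on the log2 scale, adjusted p = 3.9e-07. The OT-I experiment differs from the others in cells, stimulus and tumour co-culture at once, which cannot be told apart. Neither the polyclonal nor the vehicle experiment held melanoma cells, and what set their effects apart was not tested.

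Genes around the proteasome were followed in 4 lists. Their counts stand beside the shares of all tested genes called higher and lower, which were 28.6% and 35.5% in polyclonal, 22.4% and 36.2% in OT-I, 24.5% and 34.4% in vehicle and 38.5% and 22.6% in NAC against vehicle chronic libraries, and several lie near them. Of 11 genes of MHC class I peptide loading, 9 fell and 1 rose in vehicle chronic libraries (34.4% and 24.5% of all genes), and 6 rose and 3 fell with NAC (38.5% and 22.6%). Tap1, a subunit of the peptide transporter that lies next to Psmb9, fell from 172 ± 2.71 to 93.8 ± 1.11 RPKM with vehicle and was at 213 ± 2.67 RPKM with NAC (1.17 ± 0.049 on the log2 scale, adjusted p = 5.03e-14). The chaperone gene Calr went the other way, from 467 ± 25.1 to 604 ± 0.547 RPKM and to 238 ± 4.64 RPKM with NAC. In polyclonal cells 4 rose and 6 fell, led by Calr (1.32 ± 0.061 on the log2 scale, adjusted p = 1.15e-13) and Tap2 (-0.32 ± 0.060 on the log2 scale, adjusted p = 9.45e-05), and in OT-I libraries 6 rose and 1, Tap1, fell (-0.38 ± 0.049 on the log2 scale, adjusted p = 1.73e-06).

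Of 17 genes of interferon-γ signalling 4 rose and 11 fell in vehicle chronic libraries (24.5% and 34.4% of all genes), and 11 rose and 5 fell with NAC (38.5% and 22.6%). Ifng itself rose from 4.67 ± 0.538 to 430.5 ± 9.195 RPKM in vehicle chronic libraries and was at 118 ± 3.91 RPKM with NAC, opposite to Psmb9. Nlrc5, the activator of MHC class I genes, was at 56.7 ± 2.65, 11.3 ± 0.7702 and 59.8 ± 2.86 RPKM in vehicle acute, vehicle chronic and NAC chronic libraries. Gbp2, an interferon-induced GTPase gene, fell from 80.95 ± 3.18 to 16.1 ± 0.296 RPKM. Irf1, a factor known to drive Psmb9 and chosen after its values were seen, was at 61.6 ± 0.757, 29.96 ± 1.49 and 62.5 ± 1.499 RPKM in the same order. In OT-I libraries, where Psmb9 was called lower, Irf1 rose from 106 ± 3.22 to 237 ± 4.89 RPKM. Irf8 of the same list was at 30.5 ± 2.82, 392 ± 4.82 and 266 ± 4.53 RPKM in vehicle acute, vehicle chronic and NAC chronic libraries. A link between these factors and Psmb9 was not tested. In polyclonal cells 9 rose and 6 fell, with Ifng at 7.38 ± 0.9603 and 118 ± 9.94 RPKM and the receptor gene Ifngr1 falling from 389 ± 12.5 to 51.6 ± 2.09 RPKM. In OT-I libraries 8 rose and 6 fell, and Ifng rose from 6.82 ± 0.635 to 632 ± 11.9 RPKM while Ifngr1 fell from 225 ± 9.69 to 89.1 ± 2.83 RPKM.

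NRF1, encoded by Nfe2l1, is the factor that raises proteasome genes when proteasome activity is short. Of its 10 listed regulators and partners 6 rose and 2 fell in polyclonal, 5 rose and 4 fell in vehicle, and 4 rose and 5 fell in OT-I chronic libraries, and 2 rose and 4 fell with NAC (38.5% and 22.6% of all genes). Nfe2l1 fell from 119 ± 2.69 to 67.9 ± 0.937 RPKM in OT-I libraries (-0.80 ± 0.057 on the log2 scale, adjusted p = 3.55e-10), the largest fall of the list there. It rose from 22.8 ± 2.06 to 51.5 ± 3.095 RPKM in polyclonal and from 22.96 ± 1.25 to 44.9 ± 0.847 RPKM in vehicle chronic libraries, and was at 31.9 ± 1.28 RPKM with NAC. Maff, a small partner factor, rose from 1.96 ± 0.516 to 8.47 ± 0.508 RPKM in vehicle chronic libraries and fell to 1.82 ± 0.197 RPKM with NAC, and Nfe2l2, which encodes NRF2, moved opposite to it, at 21.03 ± 0.812, 8.09 ± 0.321 and 10.5 ± 0.354 RPKM. In polyclonal cells Maff rose (1.21 ± 0.11 on the log2 scale, adjusted p = 5.99e-09) and Nfe2l2 fell (-0.76 ± 0.068 on the log2 scale, adjusted p = 5.4e-09). Of 19 measured partners outside the symbol rule, 12 rose and 3 fell in polyclonal, 5 rose and 5 fell in OT-I and 3 rose and 8 fell in vehicle chronic libraries, and 1 rose and 8 fell with NAC. Pomp, the maturation factor of the core, rose from 139 ± 22.2 to 241 ± 3.73 RPKM in OT-I libraries. Uchl5, a deubiquitinase of the cap, rose from 27.3 ± 2.43 to 44.3 ± 3.38 RPKM in polyclonal libraries and fell from 47.4 ± 0.973 to 27.8 ± 1.34 RPKM with NAC. The ubiquilin gene Ubqln2 fell in polyclonal libraries (-0.49 ± 0.068 on the log2 scale, adjusted p = 2.21e-06) and Ubqln4 rose with NAC (0.56 ± 0.051 on the log2 scale, adjusted p = 8.6e-09). Zfand5 fell (-0.79 ± 0.059 on the log2 scale, adjusted p = 7.06e-10) and the ubiquitin ligase gene Syvn1 of the NRF1 list rose (0.55 ± 0.052 on the log2 scale, adjusted p = 1.96e-08) in OT-I libraries, and the ubiquitin ligase gene Ube3a rose in vehicle chronic libraries (0.35 ± 0.082 on the log2 scale, adjusted p = 0.000995).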

How the data were processed

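Poly(A) RNA was sequenced (NEBNext Ultra kit, per the labels' protocols). Tools named in the submitters' processing notes are edgeR, HTSeq and bcl2fastq 2.17, with build mm9; aligner, annotation and strand handling were not given in the sources used here. Expression came as 1 table of RPKM on a linear scale that the authors deposited, and its 21 columns were matched to samples by title. Whole reads were recovered from the RPKM (all genes within 0.001 reads) and gave the depths. No 2 replicates of a group agreed within the noise of sampling (chi-square divided by genes between 1.52 and 56.5, over genes with 20 or more reads). Same-numbered libraries deviated together across genes in the polyclonal experiment (r of 0.446, 0.629 and 0.168). However, acute replicate 1 correlated more with chronic replicate 3 (0.569), and acute replicate 3 with chronic replicate 1 at 0.134. These values do not settle a pairing by number, and the labels give none. Same-numbered libraries did not deviate together in the other experiments.

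Values were analysed as log2(RPKM + 1), which understates changes of low genes, for genes that reached RPKM 1 in 3 or more libraries. All libraries entered 1 limma fit (3.58.1, R 4.3.3; a mean per group, empirical Bayes trend, 14 residual degrees of freedom), with two-sided tests and Benjamini-Hochberg adjustment over all 12630 genes; adjusted p under 0.05 was a call. The test was checked on simulated counts without libraries that stood apart, so that check does not cover such libraries. Genes are named by rule: 8 fixed genes, the 3 highest and 3 lowest called members without overlap per comparison, and per outside list the largest rise and fall, of which 1 is not reported here. Members and lists were chosen with earlier results of these data known. Alternatives were another pseudocount, 2 other filters, rescaling, only the compared groups, leaving out each library, a threshold of 1.5-fold and a replicate block. Chosen after seeing the data were voom (limma) on recovered reads, leaving out 3 libraries and adding the reads of Psme2 and Psme2b. The marker lists number 6, of which the NK, myeloid and melanocyte lists lacked members.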

Additional observations from a re-analysis of the deposited data

Results flagged for a closer look

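The chronic effect on several immunoproteasome and constitutive catalytic genes differed between experiments in a test of the difference itself (limma, adjusted p under 0.05), given as log2 differences with SE. The OT-I effect lay above the vehicle effect for Psmb10 (1.51, SE 0.13), Psmb9 (1.03, SE 0.13), Psme1 (0.87, SE 0.094), Psme2 (0.74, SE 0.10), Psmb7 (0.61, SE 0.10) and Psmb8 (0.55, SE 0.13). The vehicle effect lay below the polyclonal effect for all 8 genes given by library: Psmb9 (-1.15, SE 0.13), Psmb7 (-0.95, SE 0.10), Psme2 (-0.92, SE 0.10), Psme1 (-0.69, SE 0.094), Psmb5 (-0.66, SE 0.18), Psmb8 (-0.54, SE 0.13), Psmb10 (-0.45, SE 0.13) and Psmb6 (-0.39, SE 0.13). With the reads of Psme2b added, Psme2 gave 0.91 (SE 0.11) and -1.13 (SE 0.11) in that order. Between OT-I and polyclonal cells Psmb10 differed upward (1.06, SE 0.13) and Psmb7 downward (-0.34, SE 0.10). The Psmb7 difference did not pass with rescaled libraries (-0.29, adjusted p = 0.0526). Without OT-I acute replicate 3 the OT-I effect also lay below the polyclonal effect for Psmb9, Psme2, Psmb5 and Psmb6 (adjusted p of 0.0364, 0.0359, 0.0149 and 0.0197).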

How the results depend on the processing

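For 8 named genes in 8 contrasts, 987 of 1040 alternative values kept the side of the threshold, and calls among them kept direction. A change of sign where neither value passed was counted as kept, as for Psmb6 in OT-I libraries without OT-I acute replicate 3. Of the other values, 29 became a call and 23 lost it. The difference of the Psmb8 effect between OT-I and polyclonal cells reversed, from 0.011 to -0.18, without 3 libraries (polyclonal acute 2, polyclonal chronic 2, OT-I acute 3), and the cause was not tested. All 84 alternative ratio values stayed within 1 SD. At 1.5-fold, which passes fewer genes by construction, members higher and lower numbered 1 and 1 (polyclonal), 2 and 0 (OT-I), 0 and 13 (vehicle), 1 and 0 (NAC against vehicle chronic), 0 and 27 (NAC against vehicle acute) and 2 and 2 (OT-I minus polyclonal effect). Rescaled libraries gave 1 member lower in OT-I and 6 lower in the OT-I minus polyclonal effect. With only the compared groups, 3 members were lower in OT-I and 1, Psmb9, was higher in NAC than in vehicle acute libraries. Without the 3 libraries 1 was higher there, 28 were lower in the OT-I minus polyclonal effect and 3 in the OT-I minus vehicle effect. Leaving out each library gave 2 to 9 members lower in OT-I, 9 to 21 in the OT-I minus polyclonal and 0 to 2 in the OT-I minus vehicle effect. In NAC against vehicle chronic libraries it gave 6 to 7 members higher and 19 to 24 lower, against 7 and 25 with all libraries. The replicate block gave 30 members higher and 3 lower in polyclonal, 24 and 7 in OT-I, 0 and 41 in vehicle and 7 and 27 in NAC against vehicle chronic libraries, made calls of Psme1 in OT-I (adjusted p = 0.0475), Psme2 in the OT-I minus polyclonal effect (0.0389) and Psmb5 in the OT-I minus vehicle effect (0.046), and changed no other call of the 8 genes. The count settings with TMM scaling and edgeR were not run, because the table is RPKM. Depth limits Psmc3ip and Psma5, with 51 and 52 reads in their lowest libraries, more than other members.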

Other observations

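Values of some further members are given here. Psmd8, a 19S lid gene, was at 306 ± 29.5 and 272 ± 4.91 RPKM in OT-I acute and chronic libraries, against 116 ± 6.09 RPKM in polyclonal acute and 145 ± 2.696 RPKM in vehicle acute libraries. Psme4, the gene of the activator PA200, went from 24.1 ± 2.48 to 27.01 ± 1.68 RPKM in OT-I libraries (0.16 ± 0.063 on the log2 scale, adjusted p = 0.0347). Its change in polyclonal libraries, from 25.3 ± 0.821 to 27.95 ± 1.45 RPKM, did not pass (0.14 ± 0.063 on the log2 scale, adjusted p = 0.069). Psmd10, the 19S assembly chaperone gankyrin, passed in none of the 4 comparisons. Psmc3ip, the recombination cofactor gene that matches by symbol only, fell from 16.9 ± 0.342 to 9.84 ± 0.605 RPKM in vehicle chronic libraries and rose from 9.74 ± 1.26 to 13.6 ± 0.285 RPKM in OT-I chronic libraries. These genes were picked after their values were seen.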
